A study of Homo sapiens with 6 samples.

Results

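The TGF-β family members examined here were the 3 ligands TGFB1, TGFB2 and TGFB3, the 3 receptors TGFBR1, TGFBR2 and TGFBR3, and the 4 latent TGF-β binding proteins LTBP1, LTBP2, LTBP3 and LTBP4. Probes were taken by gene name, and every probe carrying one of these names was kept. This gave 10 genes measured by 14 probes, out of 50599 probes on the array. All 14 probes passed the filter on detection and were tested, and 13 of them were well above background on all 6 arrays.

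TGF-β is secreted in a latent form, in which the cut propeptide still wraps the mature ligand. LTBP1, LTBP3 and LTBP4 bind this complex and tether it to the extracellular matrix, whereas LTBP2 is a matrix protein of the same family that does not bind latent TGF-β. Integrins, proteases and thrombospondin release the ligand, which then binds TGFBR2, and TGFBR2 activates TGFBR1, the kinase that phosphorylates SMAD2 and SMAD3. TGFBR3, also called betaglycan, has no kinase and presents ligand, above all TGF-β2, to TGFBR2. Phosphorylated SMAD2 and SMAD3 join SMAD4, a gene lost in many pancreatic cancers and in BxPC-3.

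The question asked of the samples was how the iron chelator deferasirox (DFX) alters gene expression in pancreatic cancer grown in an animal. BxPC-3, a single established human pancreatic adenocarcinoma line, was injected with Matrigel under the skin of female BALB/c (nu/nu) mice aged 8 to 10 weeks, which lack mature T cells but keep other leukocytes, vessels and fibroblasts. Dosing started at a tumor volume of 150 mm3 and lasted 21 days, with 3 oral doses per week. The control group (3 tumors) received saline vehicle and the DFX group (3 tumors) received DFX in saline at 200 mg/kg, with no other allele or agent in either group. RNA of each tumor was hybridized to a one-color human 60-mer array. Because whole tumors were measured, fewer cells of a type and less RNA per cell cannot be told apart, and RNA of the mouse host may also have been in the sample. BxPC-3 was the only human source, so host cells could be read only through mouse RNA that pairs with human probes. All 6 arrays were on 1 slide, with the control tumors in one row and the DFX tumors in the other, so slide row and treatment cannot be told apart.

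Values are log2 intensities after quantile normalization, and a difference is DFX minus control on that scale. A probe was called at an unadjusted limma p under 0.05. No probe on the array had an adjusted p under 0.05 with limma and Benjamini-Hochberg adjustment, the lowest being 0.0675, so every call below rests on the unadjusted p. Of 31807 tested probes 2675 were called (8.41%), with 4.95% lower and 3.46% higher in DFX tumors. The lower share of these calls was 58.8%, and it was 42.6% when arrays were scaled to their 75th percentile and 71.8% when scaled to their median. Between 50.3% and 56.5% of probes were well above background on an array, with the lowest value on the array of DFX replicate 2, and no spot was saturated.

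Because the readout of a member is the base pairing of its RNA with a 60-base probe, the probes that read into the coding part are shown for the member with the lowest p-value and for one probe each of 2 latency proteins. Capitals mark cysteine codons in the reading frame that holds most of them and has no stop. Cysteines form the knot that holds the mature TGF-β ligand together, and they close the repeats of the LTBPs. The TGFB1 probe lies in the part that encodes the mature ligand, and its 60 bases span 9661 bases of the genome and so cross at least 1 intron.
TGFB1, A_24_P79054: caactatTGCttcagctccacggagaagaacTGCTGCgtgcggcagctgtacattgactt
LTBP1, A_33_P3304655: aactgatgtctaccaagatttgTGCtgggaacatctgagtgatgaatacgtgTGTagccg
LTBP4, A_33_P3348091: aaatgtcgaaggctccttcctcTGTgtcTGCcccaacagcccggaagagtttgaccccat
On hg19 these probes lie at chr19:41838142-41847802 on the minus strand, chr2:33590413-33590472 on the plus strand and chr19:41125304-41125363 on the plus strand. The first holds 3 cysteine codons and each of the others 2.

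Of the 14 member probes, 3 were called, which is to be read against 8.41% of all probes, and no member passed after adjustment. The members were chosen with earlier results of these data known, so their counts are a description and no test. TGFB1 and the dim LTBP3 probe were lower in DFX tumors and TGFB2 was higher. The LTBP3 probe was well above background on 1 of the 6 arrays only, so of the calls 1 in each direction rests on a probe measured in all tumors. As genes, 3 of 10 members were called, against 10.8% of 22718 tested genes (6.40% with a lower probe and 4.45% with a higher probe). The values of control and DFX tumors did not overlap for 5 of the 14 probes, against 15.5% of all tested probes, with 3 of the 5 lower (TGFB1, LTBP3 and LTBP4) and 2 higher (TGFB2 and TGFBR2). By sign alone 10 probes were lower and 4 higher, against 54.4% lower among all tested probes. The median difference of the member probes was -0.14, against -0.02 for all probes, and the median absolute difference was 0.24 against 0.16.

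**Figure D1:**
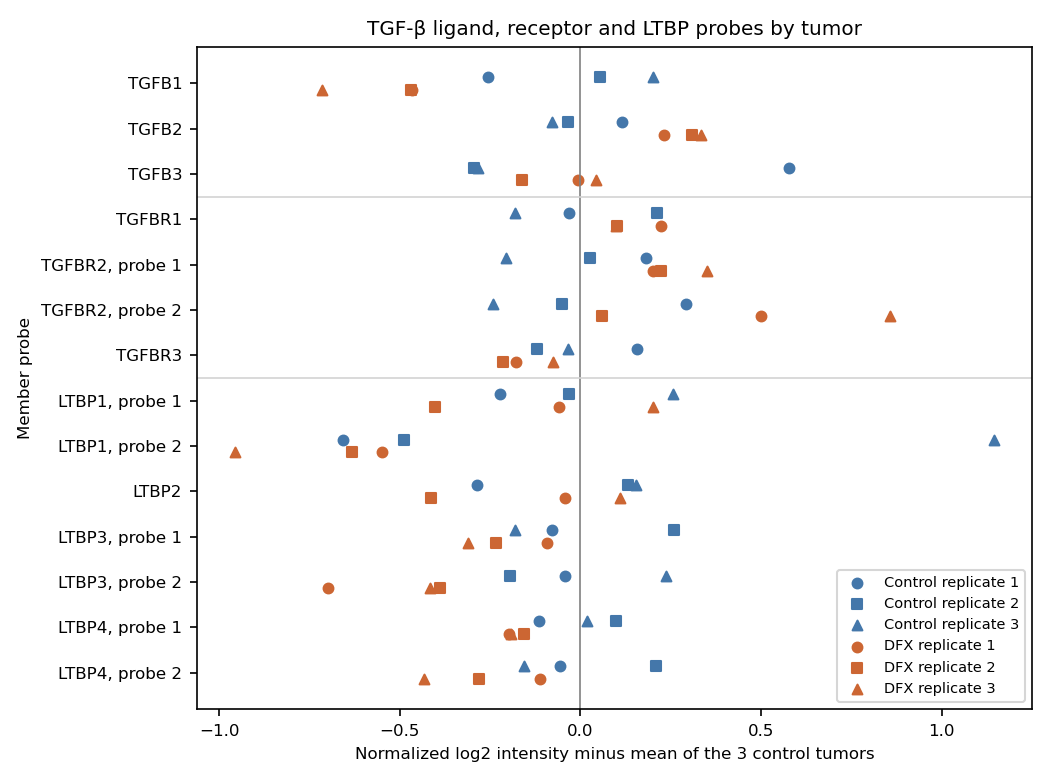
Normalized log2 intensity of each member probe (rows) in each tumor (points), drawn as the difference from the mean of the 3 control tumors. Colors mark the groups and symbols the replicates, and rows run from ligands through receptors to LTBPs. TGFB1 is lower in all 3 DFX tumors than in any control tumor, TGFB2 is higher in all 3, and TGFB3 and the second LTBP1 probe each have 1 control tumor far above the rest.

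TGFB1, the most widely expressed of the ligands, had the lowest p-value among the members. Its probe read 10.41, 10.72 and 10.87 in control replicates 1, 2 and 3 and 10.20, 10.20 and 9.95 in DFX replicates 1, 2 and 3. Every DFX tumor was below every control tumor. The group means were 10.67 ± 0.23 (SD, n = 3) and 10.12 ± 0.14 (SD, n = 3). The difference was -0.55 with a standard error of 0.16 and a 95% interval of -0.93 to -0.17, an intensity change of -31.7%. Its unadjusted limma p was 0.0127 and its adjusted p 0.514. Permuting the tumors between the groups in all 20 arrangements (exact, two-sided) gave p = 0.1, the smallest value that 3 against 3 tumors can give. Of all tested probes 10.1% had a larger absolute difference.

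TGFB1 is the only member probe printed 10 times on each array, so its error between spots of an array can be set beside the spread between tumors. Each tumor had its own array, so error of labeling and hybridization stays within the spread between tumors. Within an array the 10 spots had an SD of 0.033 to 0.062, whereas the tumors of a group had an SD of 0.23 and 0.14. No spot was flagged. The lowest of the control spots was 10.33, in control replicate 1, and the highest of the DFX spots was 10.26, in DFX replicate 1. Repeat spots are technical and add no tumors to the comparison.

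**Figure D2:**
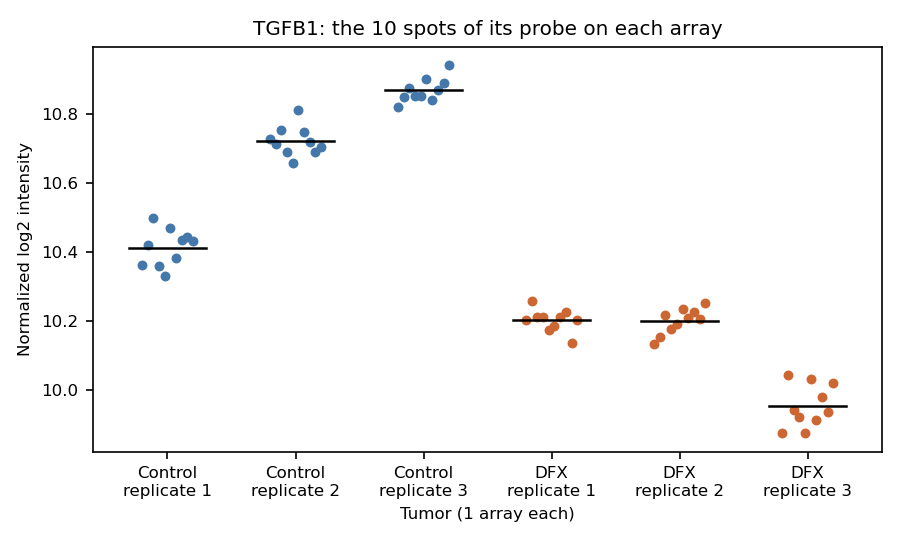
Normalized log2 intensity of the 10 TGFB1 spots on each array (points), grouped by tumor. Spots of an array lie within a narrow band, and all DFX spots (highest 10.26) lie below all control spots (lowest 10.33).

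TGFB2, the ligand that depends most on TGFBR3 for binding, went the other way. Control tumors read 6.03, 5.88 and 5.84 and DFX tumors 6.15, 6.23 and 6.25, with no overlap. The probe lies at chr1:218614784-218614843 on the plus strand. The means were 5.92 ± 0.10 and 6.21 ± 0.05 (SD, n = 3 each). The difference was 0.29 with a standard error of 0.11 and a 95% interval of 0.033 to 0.55, an increase of 22.3%. The unadjusted limma p was 0.0326 and the adjusted p 0.571. This call was lost in 9 of 16 alternative settings, among them normexp background correction (0.14), the raw mean signal (0.15) and leaving out any tumor but control replicate 1 (0.25 to 0.32).

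Within each array TGFB1 exceeded TGFB2 by 4.38, 4.84 and 5.03 in control tumors and by 4.05, 3.97 and 3.70 in DFX tumors. These are readings of 2 different probes, so only the change of the gap between tumors can be read, not its size. The gap was narrower in all DFX tumors, which follows from the separation of the 2 probes in opposite directions and is no further result.

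TGFB3, at chr14:76424904-76424963 on the minus strand, did not differ beyond its spread. It read 7.25, 6.38 and 6.39 in control tumors and 6.67, 6.51 and 6.72 in DFX tumors. Control replicate 1 was above every other tumor and the other controls were below every DFX tumor. The difference was -0.04 (95% interval -0.67 to 0.59), with an adjusted limma p of 0.974. Without control replicate 1 it was 0.25.

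Of the receptors, none was called. TGFBR1, the signaling kinase (chr9:101916322-101916381, plus strand), read 6.73, 6.97 and 6.58 in control tumors and 6.98, 6.86 and 6.86 in DFX tumors. The groups overlapped, and the difference was 0.14 (95% interval -0.19 to 0.47, adjusted limma p 0.782).

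TGFBR2, the ligand-binding kinase, has 2 probes. The first probe (A_23_P211957, chr3:30735163-30735222, plus strand) read 12.33, 12.18 and 11.94 in control tumors and 12.35, 12.37 and 12.50 in DFX tumors. All DFX values were above all control values, although control replicate 1 was only just below the lowest of them. The difference was 0.26 with a standard error of 0.13 and a 95% interval of -0.07 to 0.59, with an unadjusted limma p of 0.103 and an adjusted p of 0.648. The second probe (A_33_P3313825, chr3:30703057-30703116, plus strand, designed on another transcript model) read 5.82, 5.48 and 5.29 in control tumors and 6.03, 5.59 and 6.39 in DFX tumors. Those groups overlapped, and the difference was 0.47 (95% interval -0.13 to 1.07). Both probes were higher by sign and neither passed the test. Without DFX replicate 2 the second probe's difference was 0.68, with an unadjusted limma p of 0.025.

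TGFBR3, betaglycan (chr1:92148888-92148947, minus strand), read 8.30, 8.02 and 8.11 in control tumors and 7.97, 7.93 and 8.07 in DFX tumors. DFX replicate 3 lay between control replicates 2 and 3. The difference was -0.16 (95% interval -0.44 to 0.13, adjusted limma p 0.735).

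**Figure D3:**
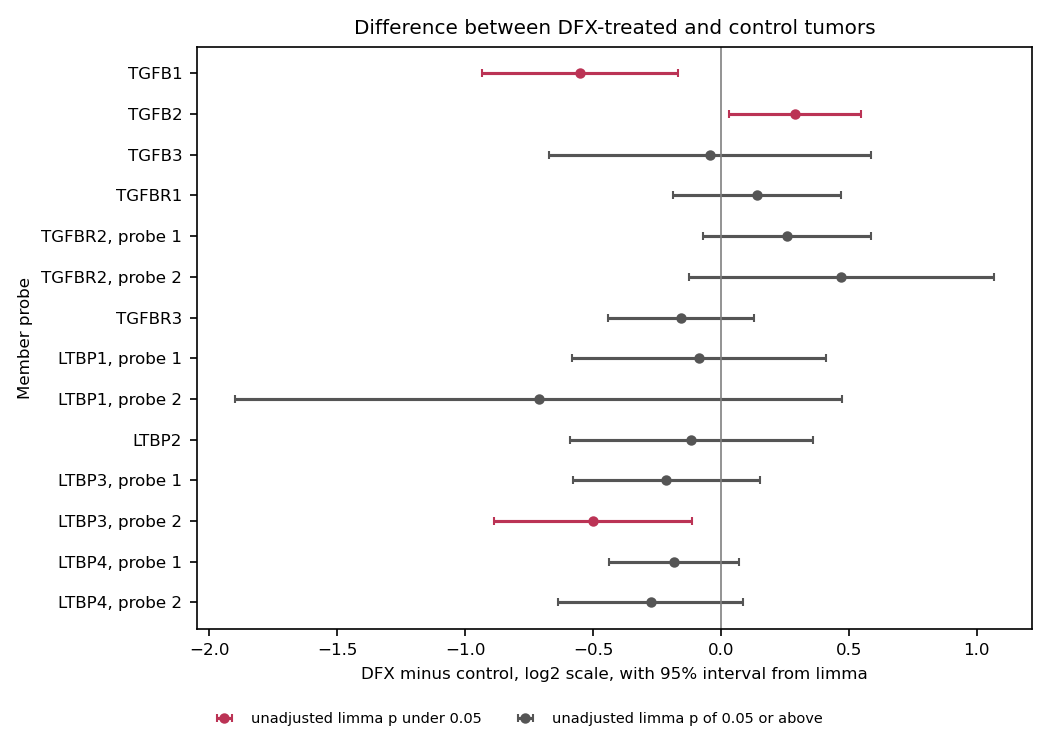
Difference between DFX and control tumors for each member probe (DFX minus control, log2 scale), with the 95% interval from limma as bars. The intervals of TGFB1, TGFB2 and the second LTBP3 probe exclude 0, and the other 11 include it. The second LTBP3 probe was well above background on 1 of the 6 arrays, so its plotted size is a fitted value near background.

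Of the 7 probes of the latency proteins, all were lower by sign in DFX tumors, against 54.4% of all tested probes, and 1 was called. LTBP1, LTBP3 and LTBP4 count here with 2 probes each. The signs of the first LTBP1 probe and of LTBP2 turned when certain tumors were left out. LTBP4, which preferentially carries TGF-β1, has 2 probes. The first (A_33_P3221064, chr19:41135661-41135720, plus strand) read 13.86, 14.07 and 13.99 in control tumors and 13.77, 13.82 and 13.78 in DFX tumors. The groups did not overlap, but the difference was only -0.18 (95% interval -0.44 to 0.07, unadjusted limma p 0.130, adjusted p 0.670). The second LTBP4 probe, whose sequence is given above, read 8.04, 8.30 and 7.94 in control tumors and 7.98, 7.81 and 7.66 in DFX tumors. DFX replicate 1 was above control replicate 3, and the difference was -0.27 (95% interval -0.64 to 0.09).

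LTBP3, which binds all 3 latent ligands, also has 2 probes. The first (A_24_P298360, chr11:65306896-65307043, minus strand) read 10.13, 10.47 and 10.03 in control tumors and 10.12, 9.98 and 9.90 in DFX tumors. These overlapped, and the difference was -0.21 (95% interval -0.58 to 0.15, unadjusted limma p 0.206). The second, dim one (A_33_P3221084, chr11:65311320-65311379, minus strand, on another transcript model) read 4.09, 3.94 and 4.37 in control tumors and 3.44, 3.75 and 3.72 in DFX tumors, with no overlap. The unadjusted limma p was 0.0194 and the adjusted p 0.546. The probe was well above background on 1 of the control arrays and on none of the DFX arrays, and the ratio of the control mean to the background limit of the DFX arrays was 0.876, so the size of a decrease has no lower bound and no fold is given. It was not called with normexp background correction, with the raw mean signal or without DFX replicate 1.

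LTBP1, the LTBP first found with latent TGF-β1, likewise has 2 probes. The first (A_23_P43810, chr2:33623836-33623895, plus strand) read 7.91, 8.10 and 8.39 in control tumors and 8.07, 7.73 and 8.33 in DFX tumors. The groups overlapped throughout, and the difference was -0.09 (95% interval -0.58 to 0.41). The probe shown above read 5.48, 5.65 and 7.28 in control tumors and 5.59, 5.50 and 5.18 in DFX tumors. Control replicate 3 stood far above the other 5 tumors, and without it the difference of -0.71 (95% interval -1.90 to 0.48) became -0.14. LTBP2 (chr14:74965452-74965511, minus strand) read 6.97, 7.38 and 7.40 in control tumors and 7.21, 6.84 and 7.36 in DFX tumors. It overlapped, with a difference of -0.12 (95% interval -0.59 to 0.36).

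The other genes of the pathway were taken from 4 lists written for this pathway: transducers, co-receptors and extracellular binders, latency anchoring and activation, and TGF-β response. Of 65 tested genes in all, 13 were called, 6 with a lower and 7 with a higher probe, against 10.8%, 6.40% and 4.45% of all genes. The lists were chosen with earlier results of these data known, so this comparison is a description and no test. No gene passed after adjustment. The median difference over the genes' brightest probes was -0.03, against -0.02 for all tested probes, with 35 genes lower and 30 higher.

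Among 15 transducers 2 were called. SMAD6, an inhibitory SMAD, read 9.37, 9.74 and 9.51 in control tumors and 10.16, 10.45 and 10.09 in DFX tumors, a difference of 0.70 (standard error 0.16, unadjusted limma p 0.004). SMAD7, the inhibitory SMAD best known for blocking TGFBR1, differed by -0.05. SMAD4 read 5.05, 4.66 and 3.92 in control tumors and 3.33, 3.83 and 3.70 in DFX tumors. It was well above background on 2 control arrays and on none of the DFX arrays, and was called lower (unadjusted limma p 0.024). The ratio of its control mean to the background limit of the DFX arrays was 1.16. That control mean holds a reading not well above background, so the ratio is not a lower bound of a decrease. Since BxPC-3 has lost this gene, the reading cannot be taken as SMAD4 of the tumor line, and its source was not tested. SMAD2 and SMAD3, the substrates of TGFBR1, differed by 0.05 and 0.02, and neither was called.

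Co-receptors and extracellular binders had 5 of 10 genes called, 2 lower and 3 higher. BAMBI, a receptor-like protein without a kinase that dampens signaling, was higher by 0.83 (standard error 0.20, unadjusted limma p 0.006). EMILIN1, a matrix protein that restrains maturation of the ligand, was higher by 0.30 (standard error 0.10, p 0.028 by limma, unadjusted). FMOD, fibromodulin, a proteoglycan that binds TGF-β, was called higher, being well above background on none of the control arrays and 1 DFX array. The ratio of its DFX mean to the background limit of the control arrays was 1.31. That mean holds readings not well above background, so the ratio is not a lower bound of an increase. DCN, decorin, a related proteoglycan, read 10.93, 11.45 and 12.07 in control tumors and 9.94, 10.10 and 10.53 in DFX tumors, a difference of -1.30 (standard error 0.32, unadjusted limma p 0.006), whereas a second DCN probe, well above background on 1 control array and none of the DFX arrays, was not called. ENG, endoglin, a co-receptor of endothelial cells, differed by -1.09 (standard error 0.29, unadjusted limma p 0.009), and was well above background on all 3 control arrays and 1 DFX array.

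Latency anchoring and activation had 2 of 15 genes called, both higher. MMP14, a membrane protease that takes part in release of the ligand, was higher by 0.31 (standard error 0.12, unadjusted limma p 0.036). LRRC32, or GARP, which holds latent TGF-β on the cell surface, was called higher. The ratio of its DFX mean to the background limit of the control arrays was 1.096. That mean holds readings not well above background, so the ratio is not a lower bound of an increase. LRRC32 was well above background on none of the control arrays and 1 DFX array, its groups overlapped, and it is named because the count is small, after its value was seen. FURIN, which cuts the propeptide, differed by -0.18 (95% interval -0.68 to 0.32), and ITGB6, part of an integrin that activates the ligand, by 0.24 (95% interval -0.21 to 0.68), and neither was called.

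TGF-β response had 4 of 25 genes called, 3 lower and 1 higher. ID3, a helix-loop-helix inhibitor, differed by -0.51 (standard error 0.16, unadjusted limma p 0.020), and JUNB, an early transcription factor, by -0.54 (standard error 0.19, unadjusted limma p 0.029). ZEB2, a repressor of E-cadherin, was called by its dimmer probe at -1.05 (unadjusted limma p 0.018), whereas its brighter probe, at -0.96, was not (unadjusted limma p 0.086). ANGPTL4, a secreted lipase inhibitor also induced by hypoxia, was higher by 0.75 (standard error 0.26, unadjusted limma p 0.028). The list thus held called genes in both directions, and its median was -0.01.

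**Figure D4:**
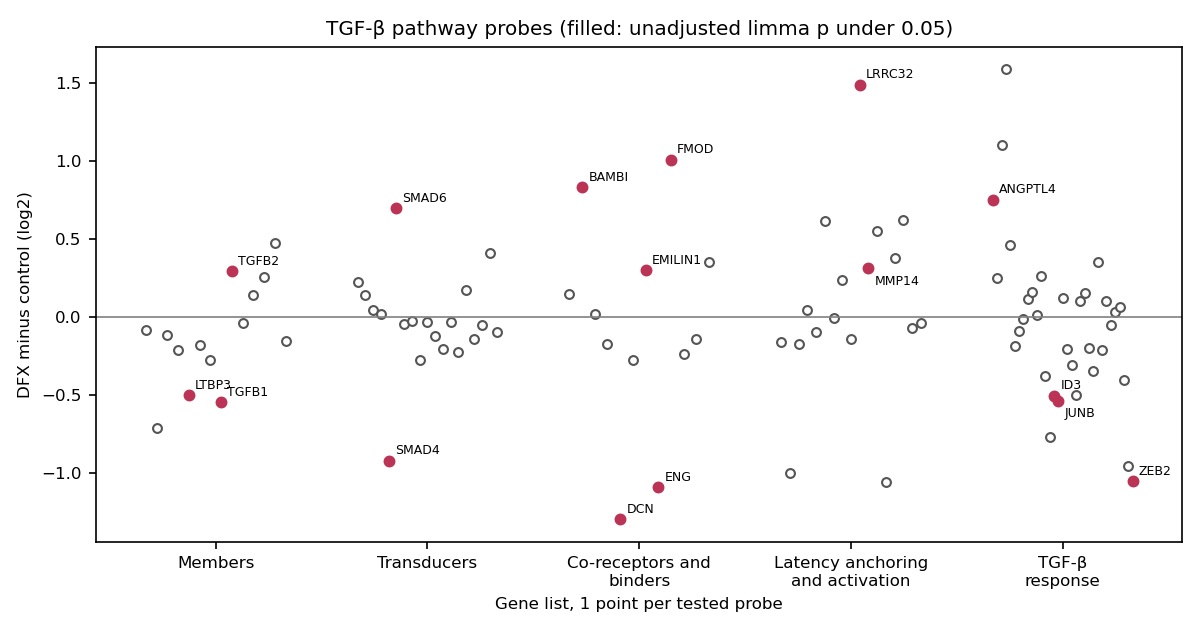
Difference between DFX and control tumors (DFX minus control, log2 scale) for each tested probe (points) of the members and the 4 other lists. Filled points have an unadjusted limma p under 0.05 and are named, and the fitted values of LTBP3, SMAD4, FMOD and LRRC32 come from probes not well above background in most tumors.

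The tumors carried the markers of their labelled origin. All 7 epithelial markers were well above background on every array, with a summed intensity of 627330 to 629457 in control and 641271 to 655173 in DFX tumors, and by their brightest probes EPCAM, KRT8 and KRT18 were called higher. Fibroblast markers summed to 14398 to 23795 in control and 13238 to 16340 in DFX tumors, with DCN and PDGFRA lower and LUM higher, and PDGFRB not well above background on any array. Leukocyte markers summed to 2106 to 2488 and 2265 to 2562, with none called and CSF1R not well above background. Endothelial markers summed to 662 to 1048 and 652 to 704, with KDR, EMCN and ERG not well above background. PECAM1 was called higher (1.27) and TIE1 lower (-0.78), while ENG was lower as given above. Platelet markers summed to 106.5 to 150.03 and 111 to 142, with PF4, PPBP and TUBB1 not well above background on any array and ITGA2B called lower from a probe well above background on 1 control array only. Red blood cell markers summed to 5289 to 6837 in control and 1677 to 1832 in DFX tumors, the one list beside the epithelial one without overlap. By their brightest probes HBA2 (-1.93) and HBD (-1.12) were called lower, whereas HBB (-0.45) and SLC4A1 (0.07) were not called. When any tested probe of a gene counted, 3 of the 4 tested genes of this list were called, all lower. AHSP was not well above background on any array, and ALAS2 was so on 1 control array only. A sum of linear intensities follows its brightest probes, so it does not show a fall of every marker. BxPC-3 was the only human source, so the fibroblast, leukocyte, endothelial, platelet and red blood cell lists do not measure human stroma. Their readings may come from the tumor line or from mouse RNA that pairs with a human probe, which was not tested. TGFB1, LTBP4 and ENG are also expressed outside the tumor cells, and the part of the marker shifts in the members' differences was not tested.

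Of 17792 other genes whose brightest probe was well above background on all arrays, DEDD2 (r = 0.990), PRKAG1 (r = 0.990) and EIF2B4 (r = 0.988) had the pattern most like TGFB1 by Pearson correlation over the 6 tumors. With the groups apart, such a correlation also follows the difference between them. DEDD2 differed by -0.35, PRKAG1 by -0.31 and EIF2B4 by -0.44.

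**Figure D5:**
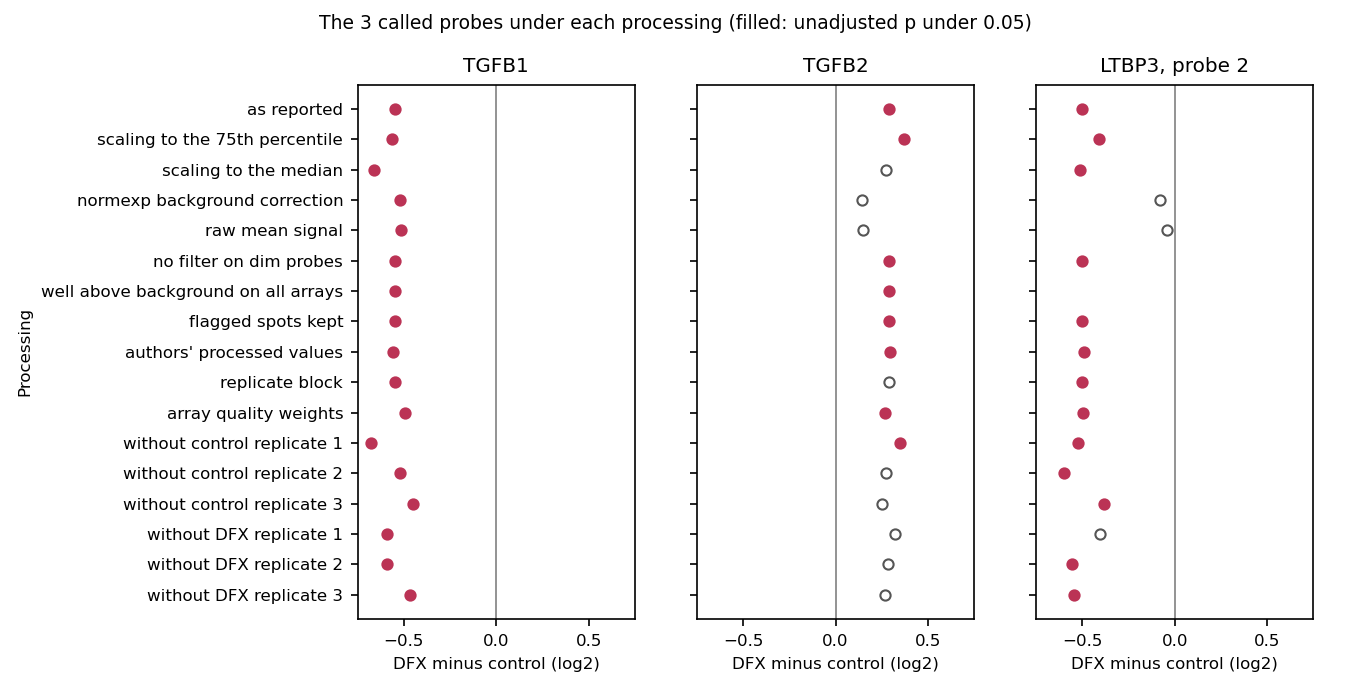
Difference between DFX and control tumors for the 3 called members (DFX minus control, log2 scale) under each processing setting, with filled points for an unadjusted limma p under 0.05. TGFB1 stays called in all 16 alternatives (-0.68 to -0.45), whereas TGFB2 and the dim LTBP3 probe lose the call in several.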

How the data were processed

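RNA of 6 BxPC-3 xenografts, 3 control and 3 DFX, was read on arrays. The authors deposited scanner files with intensities on a linear scale, flags, and per spot a detection p-value relative to background. File headers name Feature Extraction 10.7.1.1, the submitters' notes 9.5.1.1. The authors' matrix of normalized intensity values was used as an alternative. The methods give log2 transformation, quantile normalization and detection at p-values under 0.05 across samples as a filter, and name no test for the array data. For animal experiments as a whole they name the Kruskal-Wallis H test, which was run here as an alternative. These steps were applied to the processed signal of 58717 spots, 1398 flagged spot values were dropped, repeat spots were averaged per probe, and 31807 of 50599 probes were tested with limma 3.58.1 in R 4.3.3. The deposited flags for well above background decided where only a ratio to the background limit was given. The number of arrays limits the precision. The sources used here do not tie each tumor to an animal, so p-values measure only the spread between these tumors.

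Members, lists and rules were chosen with earlier results of these data known. Named are all members, called list genes without overlap, SMAD4, FURIN and ITGB6, and the 3 genes most correlated with TGFB1. A result that the rule also names is not reported here. SMAD2, SMAD3, SMAD7 and LRRC32 were named after their values were seen. Gene names are those of the array design and positions those of its hg19 annotation. Correlations of deviations between tumors of the same number were 0.027, 0.027 and 0.016, so no shift shared by such tumors was seen. Whether the numbers pair tumors in handling was not tested. The fit was also run on simulated data, with changes larger than those of the members, and no result here rests on it. Alternatives covered normalization, background, signal, filters, flags, the authors' values, the Kruskal-Wallis H test, the replicate block, array weights and each tumor left out.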

Additional observations from a re-analysis of the deposited data

How the results depend on the processing

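TGFB1 kept its direction and call in all 16 alternatives (-0.68 to -0.45, unadjusted limma p 0.0042 to 0.042). Of the 14 member probes and the 10 member genes, 3 were called, 1 with normexp background correction, 1 with the raw mean signal, 5 with the Kruskal-Wallis H test, and 1 to 3 with a tumor left out (1 without DFX replicate 1). Pathway genes called numbered 13, 21 with the Kruskal-Wallis H test, and 7 to 14 with a tumor left out (7 without DFX replicate 3). Of all 31807 tested probes 2675 were called, 2766 with normexp, 2875 with the raw mean signal, 1889 without DFX replicate 1 and 2662 without DFX replicate 3. Shares over all genes in the alternatives are not given, so the gene counts there cannot be read as results about the pathway. The Kruskal-Wallis H test called 4927 probes and needs only separation of the groups. Exact permutation gives p = 0.1 at such separation of 3 against 3 tumors, so its larger counts are not stronger results. Member probes without overlap numbered 5, 3 with normexp, 7 with median scaling, and 6 to 9 with a tumor left out (9 without control replicate 1). Fewer tumors make separation easier, and the share of all probes without overlap in these alternatives is not given. The counts without overlap there thus cannot be read as results about the members. TGFB2 kept its sign (0.14 to 0.37) but lost its call in 9 of 16 alternatives (median scaling, normexp, the raw mean signal, the replicate block and every tumor left out but control replicate 1), and the dim LTBP3 probe in 3 of 15 (normexp, the raw mean signal and without DFX replicate 1). With the replicate block TGFB1 differed by -0.55 (unadjusted limma p 0.039), 2 member probes were called, and TGFB2 was not (unadjusted limma p 0.088). The sign turned for TGFB3 with 75th percentile scaling (0.034) and with a tumor left out (-0.19 to 0.25), for the first LTBP1 probe (-0.23 to 0.071) and for LTBP2 (-0.26 to 0.034), none of them called. The cause of these changes was not tested. Median scaling moved the median of all probes to -0.10. Adjusted calls over all probes were 0, and 2 or 3 in some alternatives, none of them a member.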
